A study of Canis lupus familiaris with 69 samples.

Results

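The immediate early transcription factor genes were described here across 4 diagnoses of the canine uterus. They were 10 genes, FOS, FOSB, JUN, JUNB, EGR1, EGR2, EGR3, ATF3, IER3 and NR4A1, taken by symbol from the platform annotation, of 15947 genes that a probe set named by 1 symbol. All 10 were found, each by a single probe set, and all stayed in every test, since no gene was removed for a low signal.

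Immediate early genes are switched on within minutes of a stimulus, because the factors that drive them, among them serum response factor with its ELK partners and CREB, are already present in the cell and need only be phosphorylated. Their mRNAs are short-lived, so a level reflects recent signalling through MAP kinases, calcium or cAMP, and growth factors, cytokines, stretch, injury and tissue handling can all induce them. Several of their products pair with each other: FOS and JUN proteins form the dimer AP-1, which acts with NF-kB on genes of inflammation and matrix breakdown, while the EGR zinc finger proteins and the orphan nuclear receptor NR4A1 bind sites of their own. In the rodent uterus, FOS and EGR1 are known as rapid targets of estrogen.

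Expression was measured on Affymetrix arrays, 1 array per dog, in endometrium of 69 female dogs. Of these, 17 had pyometra, a uterus filled with pus, 15 had mucometra, a uterus filled with sterile mucus, 16 had cystic endometrial hyperplasia (CEH), a thickened endometrium with cystic glands, and 21 were healthy dogs in diestrus, the progesterone-dominated luteal phase. Groups followed the sample titles, and the mucometra samples carry the further label Hemometra, which names blood in the lumen. According to the methods, the uteri were removed surgically and sampled for freezing straight after. By the paper's clinical table, progesterone compounds had been given most often in pyometra and least often in diestrus dogs. Dogs in anestrus were found in the lesion groups only. The diestrus dogs were also younger and had more serum progesterone than each lesion group. The sample labels do not give these for single dogs, so age, progesterone level, cycle stage and treatment were not analysed here. Neither were the time from removal to freezing and the anaesthesia. Samples are named by diagnosis and the case number of the title.

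The values are log2 expression after robust multi-array averaging (RMA), so a difference of 1 is a 2-fold change. Array medians lay between 6.2 and 6.34 in all groups. Markers of the tissue stood above the array median in every diagnosis: 11 or 12 of 12 epithelial, all 12 stromal and all 10 smooth muscle genes, against 1 of 4 liver and 0 of 5 skeletal muscle genes. The arrays least like the others were pyometra 205 and diestrus 120, with median correlations of 0.874 and 0.891 against a median of 0.934. The most alike were pyometra 100 and mucometra 216, of different diagnoses (r = 0.993). In whole tissue, more RNA per cell and more cells of an expressing type cannot be told apart.

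The genes had their highest group means in mucometra in all 10 cases. The mean of the 10 genes in a dog had a lowest, median and highest value of 8.32, 8.68 and 11.07 in pyometra, 8.65, 10.64 and 11.42 in mucometra, 7.77, 9.30 and 10.83 in CEH and 7.30, 8.07 and 10.35 in diestrus. Every diagnosis thus overlapped every other on this mean, and pyometra dogs kept to a range of 8.32 to 9.87 except for 1 dog, pyometra 207. By limma's F test, all 10 genes differed among the 4 diagnoses, with Benjamini-Hochberg adjusted p between 1.61e-11 for IER3 and 0.000202 for EGR2. Over all genes 66.3% passed the same test, so that count says little by itself.

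**Figure D1:**
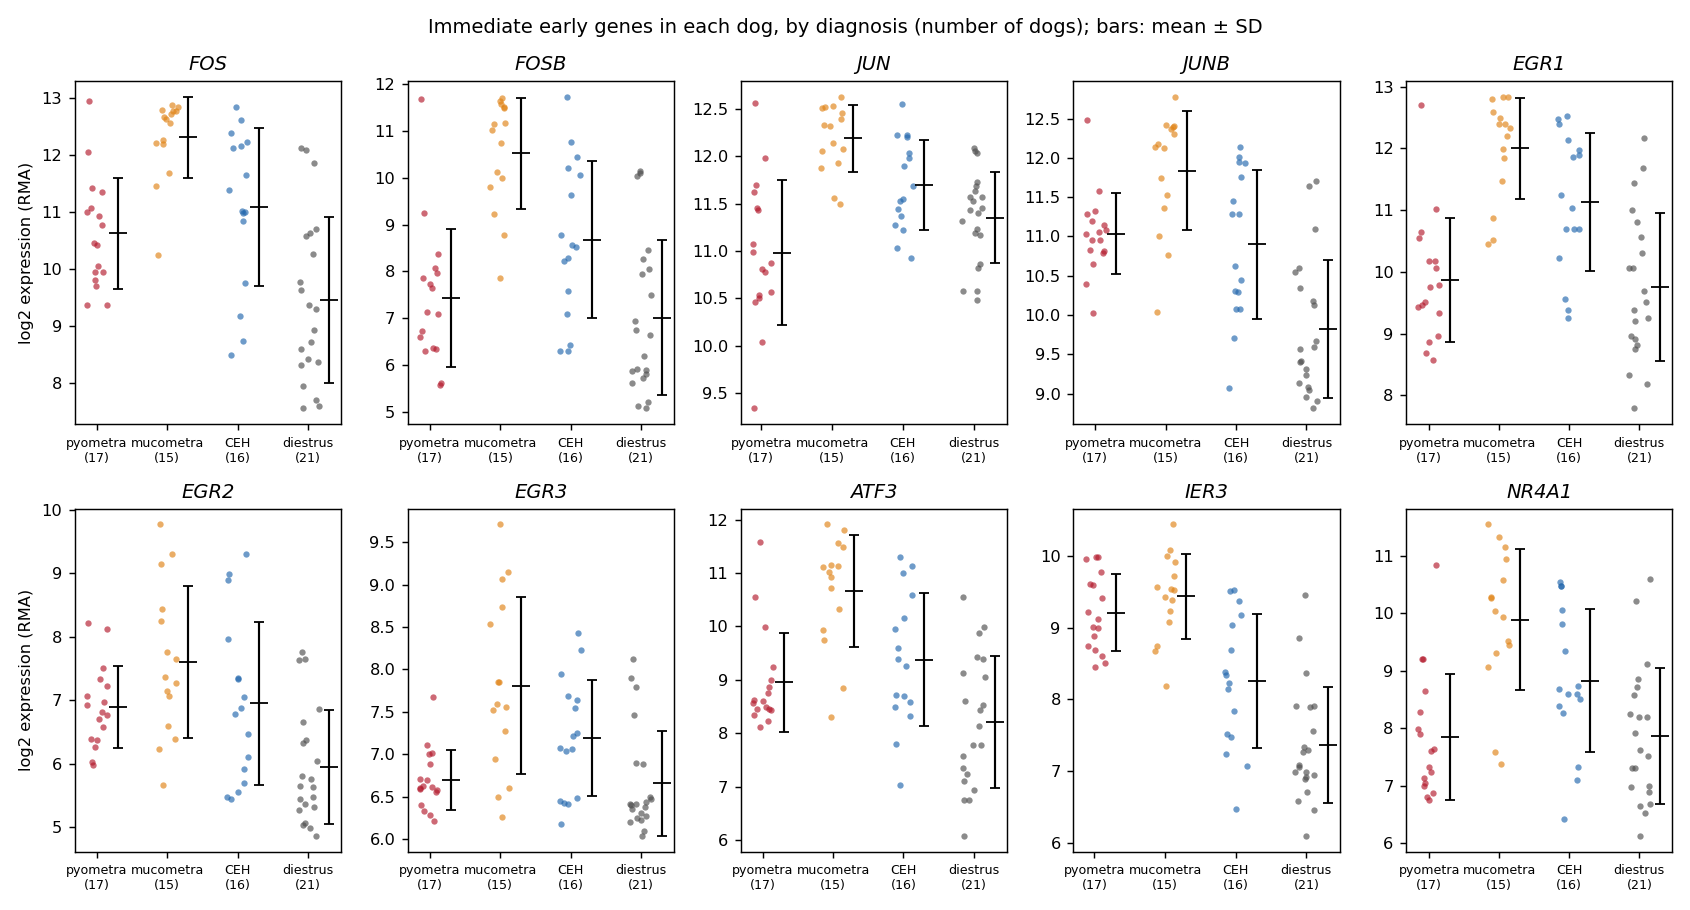
Log2 expression (vertical axis, RMA units) of the 10 genes in each dog, 1 point per dog, for pyometra (17), mucometra (15), CEH (16) and diestrus (21), with the mean and SD of each group. Mucometra stands highest in every panel, and 1 pyometra dog (case 207) lies apart from the other pyometra dogs in most panels, for example at 11.68 for FOSB, where the group median is 7.13.

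In mucometra, 9 of the 10 genes were called higher than in diestrus, called meaning a change of at least 2-fold with an adjusted p under 0.05, where 3.56% of all genes were called higher. The median log2 fold change of the 10 was 2.05, beside -0.01 over all genes. None was called lower, where 2.8% of all genes were, and JUN was higher by less than 2-fold. The comparisons of the 3 lesions with diestrus use the same 21 diestrus dogs.

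The mRNAs of FOSB and FOS gave the largest differences. The FOS proteins they encode bind DNA only with a partner. FOSB had a lowest, median and highest log2 value of 7.87, 11.02 and 11.72 in mucometra, against 5.07, 6.64 and 10.14 in diestrus. It was 11.4-fold higher in mucometra (log2 fold change 3.51 ± 0.51 SE, adjusted p = 5.12e-08), and 9 of 15 mucometra dogs exceeded every diestrus dog. FOS, the prototype of the family, ran over 10.26, 12.63 and 12.88 in mucometra and 7.56, 9.31 and 12.13 in diestrus, a 7.26-fold difference (2.86 ± 0.40, adjusted p = 2.11e-08). Here 12 of 15 mucometra dogs lay above every diestrus dog and 14 of 21 diestrus dogs below every mucometra dog, so the groups overlapped in part.

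The JUN proteins are the partners of FOS and can also pair with themselves. JUNB, which often restrains JUN in AP-1, ran over 10.04, 12.14 and 12.78 in mucometra and 8.81, 9.57 and 11.71 in diestrus. It was 4.03-fold higher in mucometra (2.01 ± 0.26, adjusted p = 6.18e-09). JUN itself ran over 11.50, 12.32 and 12.63 in mucometra and 10.48, 11.43 and 12.09 in diestrus, a log2 difference of 0.84 ± 0.18 that passed on p (adjusted p = 9.83e-05) and not on fold. JUN had the smallest SD of the 10 genes pooled over diagnoses (0.54), although within pyometra its SD of 0.77 exceeded those of EGR3, JUNB, IER3 and EGR2. Its smaller difference still placed 9 of 15 mucometra dogs above every diestrus dog.

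ATF3 is a stress-induced factor of the ATF and CREB family that can dimerize with JUN proteins and mostly represses. Its lowest, median and highest values were 8.31, 11.01 and 11.91 in mucometra and 6.08, 8.13 and 10.56 in diestrus, a 5.45-fold difference (2.45 ± 0.37, adjusted p = 1.70e-07). Here 10 of 15 mucometra dogs lay above every diestrus dog.

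Among the EGR zinc finger factors, EGR1 separated the groups most. It ran over 10.45, 12.33 and 12.84 in mucometra and 7.79, 9.52 and 12.17 in diestrus, 4.74-fold higher in mucometra (2.24 ± 0.35, adjusted p = 2.90e-07). EGR2, best known for myelination and for T cell restraint, ran over 5.67, 7.37 and 9.77 in mucometra and 4.86, 5.65 and 7.76 in diestrus (3.14-fold, adjusted p = 4.41e-05). EGR3, which acts with EGR2 in lymphocytes, ran over 6.26, 7.59 and 9.71 in mucometra and 6.04, 6.41 and 8.12 in diestrus (2.22-fold, adjusted p = 3.74e-05). For EGR2 and EGR3 only 5 of 15 mucometra dogs each lay above every diestrus dog, so their overlap was wider than that of EGR1, with 9 of 15. Both had a low signal in diestrus, with means of 5.95 for EGR2 and 6.66 for EGR3, where array medians ran from 6.21 to 6.28. Whether this narrowed their differences was not tested.

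IER3, a small protein that modulates NF-kB and ERK signalling and cell survival, is not a DNA-binding factor but is induced with them. It ran over 8.19, 9.53 and 10.44 in mucometra and 6.09, 7.08 and 9.46 in diestrus (4.22-fold, 2.08 ± 0.25, adjusted p = 4.40e-10), and the smallest adjusted p of the comparison among the 10 genes was its own. NR4A1, an orphan nuclear receptor also called NUR77, ran over 7.37, 10.04 and 11.55 in mucometra and 6.12, 7.62 and 10.59 in diestrus (4.08-fold, 2.03 ± 0.39, adjusted p = 1.93e-05). The NR4A1 ranges overlapped widely, since only 4 of 15 mucometra dogs exceeded every diestrus dog.

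CEH had the same direction in all 10 genes with smaller differences. Called higher were 6 genes (FOS, FOSB, JUNB, EGR1, EGR2 and ATF3), where 0.872% of all genes were, and the median log2 fold change was 1.04, beside -0.01 over all genes. FOSB ran over 6.29, 8.54 and 11.74 in CEH and was 3.18-fold higher than in diestrus (1.67 ± 0.50, adjusted p = 0.00917). FOS ran over 8.50, 11.21 and 12.84 (3.10-fold, 1.63 ± 0.39, adjusted p = 0.00123) and EGR1 over 9.26, 11.14 and 12.53 (2.59-fold, 1.37 ± 0.34, adjusted p = 0.0021). CEH dogs thus spread from below the diestrus median to about the top of mucometra, and 5 of 16 exceeded every diestrus dog for FOS and 3 of 16 for EGR1.

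The other CEH calls were close to the limit of 2-fold. ATF3 was 2.23-fold higher (adjusted p = 0.0145) and JUNB 2.10-fold higher (adjusted p = 0.00143), and JUNB fell under 2-fold without CEH 13 or CEH 180 (log2 fold change 0.99 to 1.00). EGR2 stood at the limit itself (1.00 ± 0.33, adjusted p = 0.0197), and its call was lost on leaving out any 1 of 20 of the 69 dogs. IER3 (0.89, adjusted p = 0.0042) passed on p alone, and NR4A1 (0.97, adjusted p = 0.0568), EGR3 (0.53, adjusted p = 0.0767) and JUN (0.34, adjusted p = 0.151) did not pass. Leaving out CEH 81 brought IER3 past 2-fold (1.01), and leaving out any 1 of 8 dogs brought NR4A1 past both limits.

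In pyometra, 3 of the 10 genes were called higher than in diestrus, where 6.72% of all genes were: IER3, JUNB and FOS. None was called lower, where 3.27% of all genes were, and the median log2 fold change of the 10 was 0.58, beside -0.05 over all genes. IER3 ran over 8.45, 9.12 and 9.99 in pyometra, against 6.09, 7.08 and 9.46 in diestrus, and was 3.61-fold higher (1.85 ± 0.24, adjusted p = 6.59e-10). All 17 pyometra dogs exceeded the diestrus median for IER3, FOS and JUNB. JUNB ran over 10.03, 11.03 and 12.48 in pyometra (2.31-fold higher, 1.21 ± 0.25, adjusted p = 4.46e-05) and FOS over 9.37, 10.46 and 12.95 (2.25-fold higher, 1.17 ± 0.38, adjusted p = 0.0075). For both, a single pyometra dog, case 207, lay above every diestrus dog.

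None of the other genes was called between pyometra and diestrus. EGR2 came near the limit (0.95 ± 0.33, adjusted p = 0.0113) and was called when diestrus 7, diestrus 110, diestrus 122, pyometra 198 or pyometra 199 was left out (1.00 to 1.04). ATF3 (0.74, adjusted p = 0.0763), FOSB (0.42, adjusted p = 0.492), EGR1 (0.11, adjusted p = 0.806), EGR3 (0.04, adjusted p = 0.893) and NR4A1 (-0.01, adjusted p = 0.978) did not pass. JUN had the most negative value (-0.37 ± 0.17, adjusted p = 0.0678), running over 9.34, 10.87 and 12.56 in pyometra and 10.48, 11.43 and 12.09 in diestrus.

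**Figure D2:**
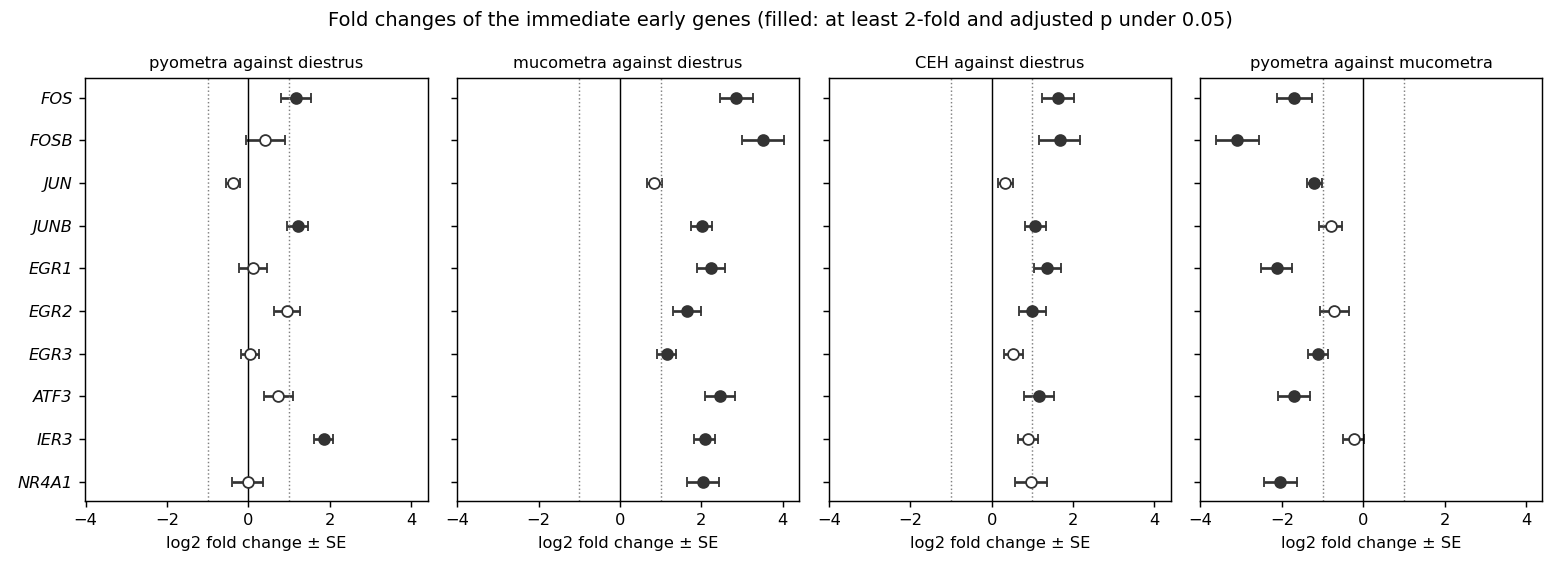
Log2 fold changes of the 10 genes with SE in pyometra, mucometra and CEH against diestrus and in pyometra against mucometra (horizontal axis; dotted lines at 2-fold; filled points were called). In mucometra 9 points are filled, in CEH 6 and in pyometra 3, and against mucometra 7 pyometra points are filled on the negative side.

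Set directly against mucometra, pyometra had the lower mean in all 10 genes and was called lower in 7 of them, where 0.834% of all genes were called lower in pyometra. The median log2 fold change was -1.45, beside -0.03 over all genes, and no member was called higher, where 2.81% of all genes were. FOSB was 8.54-fold lower in pyometra (-3.09 ± 0.53, adjusted p = 5.94e-06), with 12 of 17 pyometra dogs below the lowest mucometra dog. EGR1 was 4.38-fold lower (-2.13 ± 0.37, adjusted p = 6.43e-06) and JUN 2.30-fold lower (-1.20 ± 0.19, adjusted p = 1.26e-06). For EGR1 and for JUN, 13 of 17 pyometra dogs were below every mucometra dog, and at the other end pyometra 207 was above the mucometra median of all 3 genes.

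NR4A1 was 4.12-fold lower in pyometra than in mucometra (adjusted p = 7.59e-05), ATF3 3.26-fold (adjusted p = 0.000413), FOS 3.22-fold (adjusted p = 0.000934) and EGR3 2.16-fold lower (adjusted p = 0.000243). Without mucometra 210, the dog with the highest EGR3 value, EGR3 fell short of 2-fold (-0.97). The 3 genes without a call were JUNB (-0.80 ± 0.28, adjusted p = 0.0179), EGR2 (-0.71 ± 0.35, adjusted p = 0.11) and IER3 (-0.23 ± 0.26, adjusted p = 0.519). IER3, JUNB and FOS were called higher than in diestrus in both lesions, and of these only FOS was also called between the lesions. IER3 gave the smallest difference between the lesions.

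Against CEH, 2 genes were called lower in pyometra, where 1.67% of all genes were: EGR1 (-1.26 ± 0.36, adjusted p = 0.00332) and FOSB (-1.25 ± 0.52, adjusted p = 0.0445). The FOSB call was lost on leaving out any 1 of 17 dogs. NR4A1 came close (-0.98 ± 0.41, adjusted p = 0.0433) and was called lower without any 1 of 11 dogs. JUN (-0.71 ± 0.19, adjusted p = 0.00126) passed on p and not on fold. No member was called higher, where 4.32% of all genes were, although IER3 came close (0.96 ± 0.25, adjusted p = 0.00143) and was called without any 1 of 7 dogs. In mucometra 2 genes were called higher than in CEH, where 0.320% of all genes were: FOSB (1.84 ± 0.54, adjusted p = 0.0426) and IER3 (1.18 ± 0.26, adjusted p = 0.00996). None was called lower, where 0.0752% of all genes were, and all 10 values were positive, with a median log2 difference of 1.00 beside -0.01 over all genes, and the FOSB call was lost without any 1 of 18 dogs. ATF3 (1.29, adjusted p = 0.0521) and JUNB (0.94, adjusted p = 0.0471) lay just outside, and were called without any 1 of 13 and 6 dogs.

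Ordered by group mean, the genes fell into 3 patterns. FOSB, EGR1, EGR3, ATF3, FOS and EGR2 ran from mucometra over CEH and pyometra to diestrus. Of the neighbours in this order, mucometra and CEH were called different for FOSB, pyometra and CEH for FOSB and EGR1, and pyometra and diestrus for FOS, and no others were. For JUN and NR4A1 the order was mucometra, CEH, diestrus and pyometra, where no neighbours were called different. JUNB and IER3 ran from mucometra over pyometra and CEH to diestrus, and of their neighbours only CEH and diestrus were called different, for JUNB.

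Between dogs of 1 diagnosis the genes varied far more than most. Their within-group SD ran from 0.54 for JUN to 1.53 for FOSB, against 0.28 for the median gene, which placed them between the 85.6th and the 99.7th percentile of all genes. In diestrus, where FOSB spanned 5.07 to 10.14, 3 dogs (cases 152, 110 and 122) reached a mean of the 10 genes of 9.96 or more, while the other 18 lay at 9.32 or below. The spread itself was compared between each lesion and diestrus through deviations from the group median. No member was called in pyometra, mucometra or CEH (limma, adjusted p of at least 0.136), where 6.88%, 0.859% and 0.201% of all genes were. At an unadjusted p under 0.05 the members were 2 in pyometra, 2 in mucometra and 0 in CEH.

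**Figure D3:**
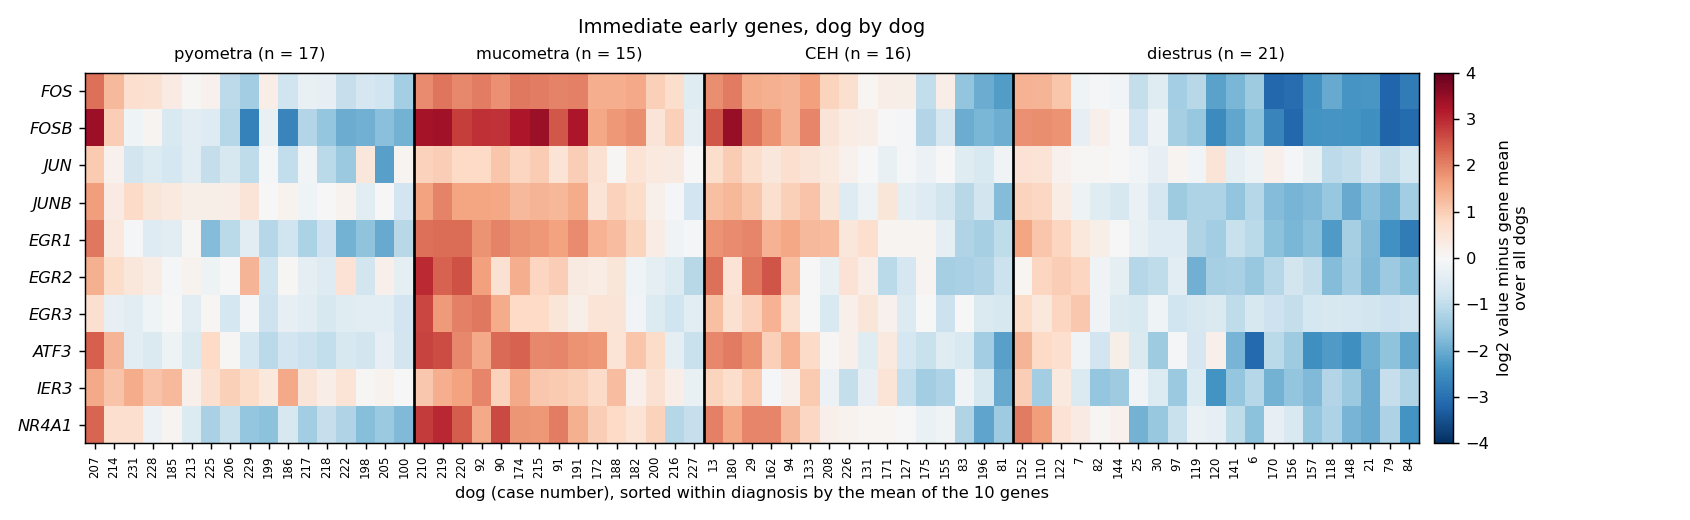
Log2 value of each gene (rows) minus its mean over all 69 dogs, for each dog (columns, labelled by case number), sorted within diagnosis by the mean of the 10 genes. Columns tend to be of 1 colour from top to bottom, with pyometra 207 (mean 11.07) and diestrus 152 (mean 10.35) high and mucometra 227 (mean 8.65) and CEH 81 (mean 7.77) low for their groups.

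The same dogs were high or low for most of the genes. Pyometra 207 was the highest pyometra dog for all 10, and mucometra 227 and mucometra 216 were between them the lowest mucometra dogs for all 10. After the mean of each diagnosis was subtracted, all 45 pairs of genes correlated positively over the 69 dogs, with a median Pearson r of 0.71 and a median Spearman rho of 0.70. All 45 passed a permutation test within diagnoses (two-sided, 100000 resamples, adjusted over the 45 pairs). The closest pair was FOS and FOSB (r = 0.95, rho = 0.96, adjusted p = 1.1e-05, from the smallest p the resamples can give). The loosest was JUN and IER3 (r = 0.30, rho = 0.28, adjusted p = 0.00858). As a background, 23 of 15937 other genes (0.144%) had an r of at least 0.60 with FOS, and the median was -0.01.

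Within single diagnoses the median r of the 45 pairs was 0.62 in pyometra, 0.83 in mucometra, 0.86 in CEH and 0.75 in diestrus. Over the 180 tests, 35 pairs passed in pyometra, 45 in mucometra, 44 in CEH and 41 in diestrus by the permutation test. Without the 2 dogs farthest from the median of the first gene of a pair, the medians were 0.31 in pyometra, 0.80 in mucometra, 0.81 in CEH and 0.64 in diestrus. Which dogs these were differed with the gene. Without pyometra 207 alone, the median r within pyometra was 0.41 and ran from -0.39 to 0.92, so the relation there rested in part on that dog. The r of JUN and JUNB within pyometra was 0.17 with all dogs and -0.53 without the 2 farthest for JUN, while FOS and FOSB had an r of 0.88 and IER3 and NR4A1 one of 0.81 without their 2 farthest.

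**Figure D4:**
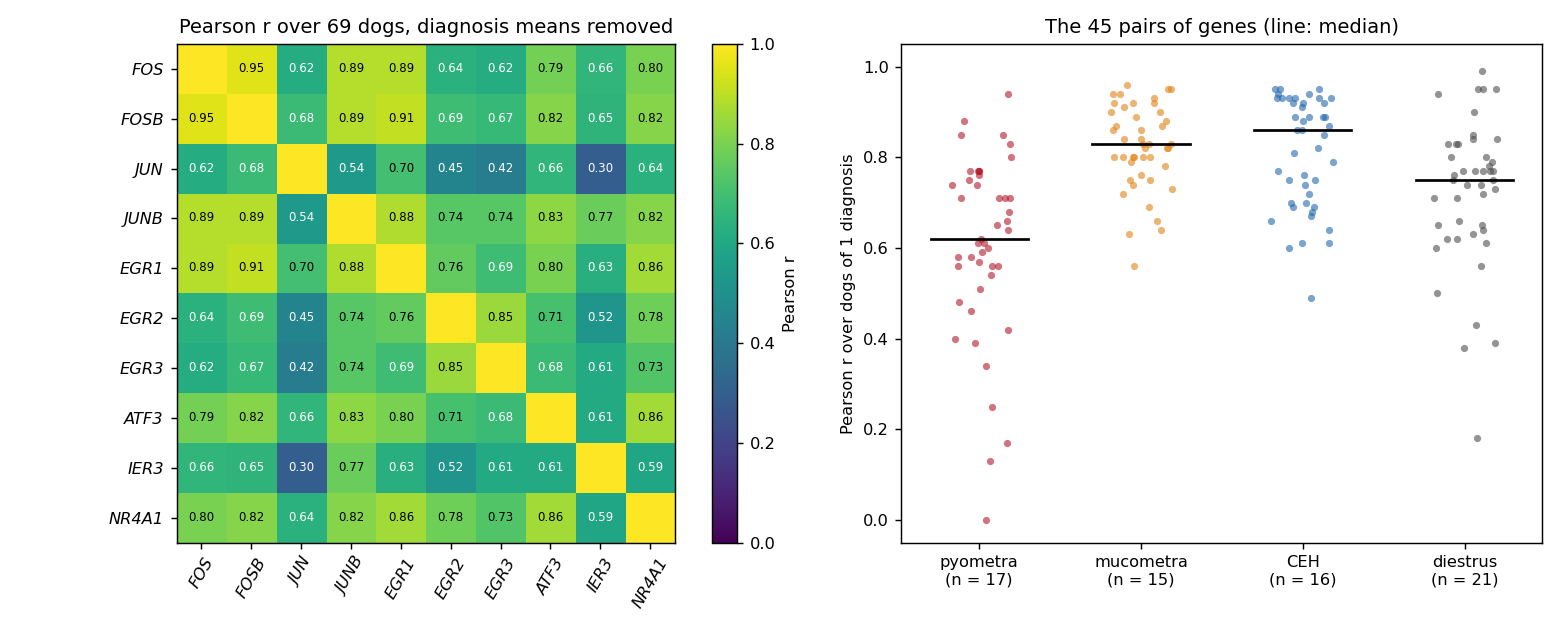
Left, Pearson r of each pair of genes over 69 dogs after subtraction of the diagnosis means, from 0.30 (JUN and IER3) to 0.95 (FOS and FOSB). Right, the r of the 45 pairs within each diagnosis (1 point per pair, line at the median), lowest in pyometra (median 0.62).

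The 10 other genes whose pattern over dogs was most like the mean of these genes, by Pearson r over 69 dogs with the diagnosis means removed, were ZFP36 (0.91), IER2 (0.90), DUSP1 (0.88), BTG2 (0.87), CCN1 (0.86), JUND (0.84), PPP1R15A (0.80), KLF6 (0.78), CSRNP1 (0.78) and NR4A2 (0.78). ZFP36 degrades the short-lived mRNAs of cytokines, DUSP1 is a phosphatase of MAP kinases, and BTG2 is an antiproliferative factor. In mucometra CCN1 was 5.15-fold, BTG2 4.53-fold, DUSP1 3.75-fold and ZFP36 3.75-fold higher than in diestrus. All 4 were also called higher in pyometra, CCN1 by 2.79-fold and DUSP1 by 2.46-fold, while IER2 (1.09-fold, adjusted p = 0.698), NR4A2 (1.14-fold, adjusted p = 0.592) and JUND (1.02-fold, adjusted p = 0.917) were not called there. Those genes were each called higher in mucometra, IER2 by 2.90-fold, NR4A2 by 3.47-fold and JUND by 2.01-fold.

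Further genes of the response were read from lists. Beside the list counts against diestrus stand the shares of all genes called higher: 6.72% in pyometra, 3.56% in mucometra and 0.872% in CEH. Of 29 other rapid response genes measured, 8 were called higher in pyometra, 15 in mucometra and 4 in CEH than in diestrus, and none lower, with median log2 fold changes of 0.63, 1.02 and 0.53. SOCS3, a feedback inhibitor of cytokine signalling, was higher in pyometra (2.65 ± 0.31) and in mucometra (2.55 ± 0.32), and DUSP5, a phosphatase specific for ERK, had the largest value in pyometra (2.66 ± 0.22). Against mucometra, 3 of the 29 were called lower in pyometra, where 0.834% of all genes were: NR4A2 (-1.60), IER2 (-1.41) and KLF4 (-1.15). Of 9 further AP-1 subunits, FOSL2 and BATF were called higher in pyometra (1.01 and 1.04), FOSL2, MAFF and JUND in mucometra (1.32, 1.10 and 1.01), and none in CEH.

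The upstream regulators, among them serum response factor, the ELK factors, CREB and the MAP kinases, had smaller differences. Of 17 measured, 2 were called in pyometra against diestrus, ELK3 higher (1.03 ± 0.18) and the kinase RPS6KA5 lower (-1.17 ± 0.18). That was near the share of all genes, 6.72% called higher and 3.27% lower. None was called in mucometra or CEH, where 11 and 5 passed on adjusted p alone (12 and 8 at an unadjusted p under 0.05) with smaller folds. The share of all genes passing on adjusted p alone was not computed here. Of 6 genes that EGR and NR4A factors act on or with, THBS1, an inhibitor of vessel growth, was called higher in all 3 lesions (1.96 in pyometra, 2.44 in mucometra and 1.39 in CEH), and CDKN1A in pyometra (1.46).

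The inflammatory genes that AP-1 and NF-kB drive had another order than the 10 genes. Of 15 measured, 14 were called higher in pyometra than in diestrus, 6 in mucometra and 2 in CEH, with medians of 2.44, 0.76 and 0.27. The shares of all genes were 6.72%, 3.56% and 0.872%. Several genes of this list, among them PTGS2, CXCL8, MMP1 and MMP13, were already reported by the paper as higher in pyometra on these arrays. The list was chosen with that known, so its pyometra count is not independent support. Against mucometra, 10 of 15 were called higher in pyometra, where 2.81% of all genes were, and none lower (median 1.68). MMP13, a collagenase, was higher in pyometra than in diestrus by 5.96 ± 0.39 on the log2 scale and in mucometra by 2.39 ± 0.41, and PTGS2, the inducible cyclooxygenase, by 5.20 ± 0.43 in pyometra and 2.95 ± 0.45 in mucometra. By group, mucometra was therefore highest in the 10 genes and pyometra in the median of these targets. Over dogs with diagnosis means removed, the r of the 10 genes with this list ran from -0.26 to 0.46. By a permutation test adjusted over 200 relations 4 passed: IER3 (r = 0.46), JUNB (0.42), EGR2 (0.33) and EGR3 (0.25). FOS, FOSB and ATF3 passed by rank only (rho = 0.33, 0.29 and 0.30), and JUN, EGR1 and NR4A1 passed neither way.

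**Figure D5:**
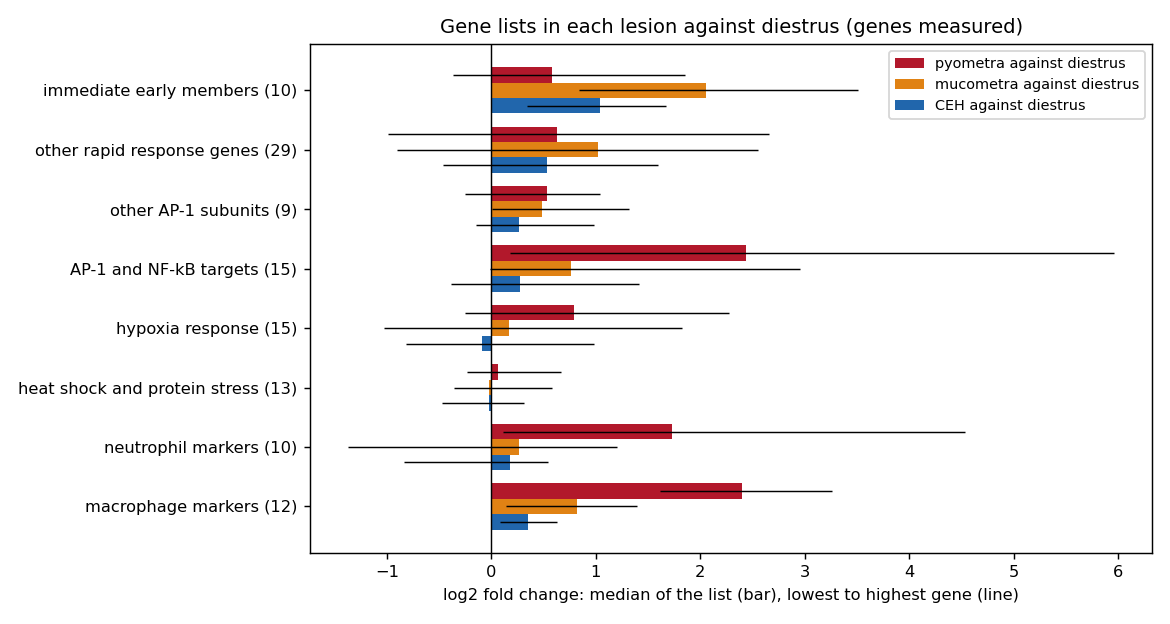
Median log2 fold change (bar) and lowest to highest gene (line) of 8 gene lists in pyometra, mucometra and CEH against diestrus, with the number of genes measured. The 10 immediate early genes have their longest bar in mucometra (2.05), the AP-1 and NF-kB targets (2.44) and macrophage markers (2.40) in pyometra, and heat shock genes lie near 0 in all.

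Leukocyte markers moved with diagnosis. In pyometra against diestrus, 7 of 10 neutrophil genes and all 12 macrophage genes were called higher, where 6.72% of all genes were. In mucometra 3 neutrophil and 3 macrophage genes were higher and 1 neutrophil gene lower, where 3.56% of all genes were higher and 2.8% lower. In CEH none was called, where 0.872% of all genes were called higher. Of 11 T and NK cell genes, 6 were called higher in pyometra, 5 in mucometra and none in CEH, with medians of 1.44, 0.98 and 0.46, and CD2 reached 2.46 in pyometra and 1.90 in mucometra. Of 8 B and plasma cell genes, 6 were called higher in pyometra, 1 in mucometra and 1 in CEH, JCHAIN being the one in mucometra (1.52) and CEH (1.43). The mean of the neutrophil list ranged from 5.84 to 9.52 over pyometra, 5.64 to 6.53 over mucometra, 5.46 to 6.34 over CEH and 5.24 to 6.12 over diestrus dogs. That of the macrophage list ranged from 6.86 to 9.92, 6.27 to 8.04, 5.46 to 7.82 and 5.77 to 7.10 in the same groups. The part of these cells in the levels of the 10 genes was not tested.

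Over dogs with diagnosis means removed, JUN was the 1 gene of the 10 to pass by Pearson r with the neutrophil list, negatively (r = -0.51, permutation adjusted p = 0.00256 over 200 relations; r = -0.48 without the 2 farthest dogs), although its rank correlation did not pass (rho = -0.28, adjusted p = 0.0748). By rank, IER3 (rho = 0.33, adjusted p = 0.0138) and JUNB (rho = 0.29, adjusted p = 0.0262) passed with that list, positively. With the macrophage list the r of JUN was -0.39 (adjusted p = 0.0186), or -0.24 without the 2 farthest dogs, and its rho -0.17 (adjusted p = 0.329). With the B and plasma cell list the r of JUN was -0.43 (adjusted p = 0.0119; rho = -0.22, adjusted p = 0.183). No gene passed with the T and NK cell list. IER3 went the other way, with an r of 0.30 with the macrophage list (adjusted p = 0.0198; rho = 0.33, adjusted p = 0.0187). JUNB passed with the macrophage list by rank (rho = 0.29, adjusted p = 0.0381) and not by Pearson r (r = 0.22, adjusted p = 0.0973). With the endothelial list, of which 3 of 10 genes were called higher in pyometra and none in mucometra or CEH, 6 of the 10 genes passed: IER3 (r = 0.56) and JUNB (r = 0.47, both adjusted p = 6.7e-05), and FOS, EGR1, EGR3 and FOSB with an r of 0.35, 0.35, 0.33 and 0.32.

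Markers of red cells were read because of the second label of the mucometra samples. Of 4 measured, ALAS2, the first enzyme of heme synthesis in erythroid cells, was called higher in mucometra (1.92 ± 0.43, adjusted p = 0.000152) and the others were not. There 3.56% of all genes were called higher. The mean of the 4 ranged from 3.80 to 6.21 in pyometra, 4.01 to 7.43 in mucometra, 3.92 to 5.43 in CEH and 3.90 to 4.69 in diestrus. Mucometra 191 had the highest ALAS2 value of its group (10.97), and mucometra 227, the mucometra dog with the lowest mean of the 10 genes, the lowest (4.05). At the other end there was no such match. Mucometra 191 had a mean of the 10 genes of 10.64, beside a group median of 10.64 and a highest value of 11.42 in mucometra 210. The r of the 10 genes with this list ran from 0.12 to 0.34, and 6 passed. Its part in the levels was not tested.

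Values that bear on the handling of tissue were limited to what the arrays hold. Of 17 heat shock and protein stress genes listed, 13 were measured. HSPA1A, HSPA1B, HSPA1L and HSPE1 were not among them, so the list says nothing of these genes. None of the 13 was called by limma in any of the 6 comparisons, all lying under 2-fold. On adjusted p alone 3 passed in pyometra, 7 in mucometra and 3 in CEH against diestrus, with medians of 0.06, -0.02 and -0.02 and values between -0.47 and 0.67. The list's r with the 10 genes ran from 0.05 to 0.23, and none of the 10 passed. Of 15 hypoxia response genes, 6 were called higher in pyometra, against 1 higher and 1 lower in mucometra and none in CEH. Of all genes, 6.72% were called higher in pyometra, and 3.56% higher and 2.8% lower in mucometra. The r of the hypoxia list with the 10 genes ran from -0.34 to 0.07, and EGR1 passed (r = -0.30, adjusted p = 0.0243; rho = -0.23, adjusted p = 0.121). The r of the 10 genes with the rapid response list ran from 0.51 to 0.93, and all 10 passed.

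Summary measures of the arrays went partly with the genes, and neither is a direct measure of array or RNA quality. The median correlation of an array with the others had an r from 0.07 to 0.43 with the 10 genes, and 4 passed, while the array median had an r from 0.16 to 0.34, and 2 passed. The case number, the one label that might follow the order of collection, ran from 100 to 231 in pyometra, 90 to 227 in mucometra, 13 to 226 in CEH and 6 to 170 in diestrus. All pyometra dogs but case 100 were numbered 185 or more. All mucometra dogs but cases 90, 91 and 92 were numbered 172 or more, so case number and diagnosis largely went together. Slopes within diagnoses do not measure that difference between diagnoses. Within diagnoses the slopes of all 10 genes on it were negative, from -0.03 to -0.29 per 100 case numbers, and none passed (limma, adjusted p = 1 for all 10). Over all genes 0% passed, with 494 genes and no member at an unadjusted p under 0.05. The part of tissue handling in the differences between diagnoses was not tested, and with no times or batches in the labels handling and lesion cannot be told apart. Age, progesterone level, cycle stage and treatment differed between the groups too, and cannot be told apart from lesion either.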

How the data were processed

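The authors extracted RNA from endometrium, hybridised it to Affymetrix canine arrays and normalised the 69 arrays together with RMA (background correction, quantile normalization and summary per probe set). The deposited values are log2 expression, used without further scaling; quantile normalization over all arrays gives them 1 distribution, so a shift of most genes would be hidden. Depth has no meaning for arrays, and the number of dogs limits precision. All columns of values were used.

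Of 32391 probe sets, 16545 had 1 symbol, 370 several and 15476 none in the platform annotation. The probe set with the highest mean stood for a gene, 598 others were set aside, and 15947 genes were tested; 15285 symbols matched RefSeq by gene ID, for names only. One limma 3.58.1 fit in R 4.3.3 held all 4 diagnoses. Genes were called at a fold of at least 2 and a Benjamini-Hochberg adjusted p under 0.05 over all genes, after a check on simulated data. Correlations used Python 3.11.15 with numpy 2.4.6, and drawings matplotlib 3.10.9. Each dog gave 1 array, so p-values measure the spread between dogs.

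The members and lists were chosen with earlier results of these data known. Named were all members, the 10 genes most like their mean, and up to 4 genes per list with the largest called change. Alternatives were the 2 groups alone, the mean of probe sets, no dim genes, another variance model, array weights, centred arrays, case number, the methods' t-test and left-out arrays. Promoter and protein sequences were not analysed here.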

Additional observations from a re-analysis of the deposited data

How the results depend on the processing

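The calls in mucometra against diestrus were the steadiest: 9 genes were called whichever of the 69 dogs was left out, against 3 to 4 in pyometra and 4 to 8 in CEH. Between lesions the range was 6 to 7 in pyometra against mucometra, 1 to 3 in pyometra against CEH and 1 to 5 in mucometra against CEH. Of 660 values of single genes under the alternatives, 627 kept their direction and their side of the threshold, 9 lost a call, 17 gained one and 7 changed sign. In pyometra against CEH, 1 gene in place of 2 was called with the 2 groups alone, with the methods' t-test and without pyometra 205 and diestrus 120. In mucometra against CEH, 63 genes of all were called, but 23 with the 2 groups alone, 159 with array weights and 18 with the t-test after adjustment (115 before), and of the 10 genes 1, 6 and 1 were called in these settings and 4 without pyometra 100 and mucometra 216. The median r of pairs was 0.86 within CEH. Without pyometra 205 and diestrus 120, the arrays least like the others, 3 of the 10 genes were called in pyometra, 9 in mucometra and 5 in CEH against diestrus, EGR2 in CEH being the loss (0.98). Values near 0 changed sign: in pyometra against diestrus EGR1 (-0.07 without pyometra 207), EGR3 (-0.01 with centred arrays, -0.02 without pyometra 207) and NR4A1 (0.02 with case number, 0.05 without pyometra 100 and mucometra 216, 0.05 without pyometra 205 and diestrus 120), and in pyometra against CEH EGR2 (0.09 with case number). The cause was not tested. Leaving out pyometra 205 and diestrus 120, pyometra 207 (also for the pairs within pyometra) or each dog was chosen after seeing the data. No paired analysis was possible because the groups share no replicate numbers.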

Other observations

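At the other end of the ranking, the genes with the most negative Pearson r with the mean of the 10 immediate early genes, over 69 dogs with the diagnosis means removed, were TTC32 (-0.61), GOLGA5 (-0.61), NDUFAB1 (-0.57), PHOSPHO2 (-0.56) and NDUFC1 (-0.55). Among the 10 most negative, NDUFAB1, NDUFC1 and NDUFA12 (-0.54) encode parts of respiratory complex I. These genes were chosen as the extreme of a ranking of all genes, and no test was made of them.

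Pyometra 207 had a mean of the 10 genes that was 2.11 above the pyometra mean, and pyometra 214, the next, one that was 0.92 above it. Mucometra 227 lay 1.77 and mucometra 216 1.30 below the mucometra mean, and mucometra 216 was also the array most alike to pyometra 100 (r = 0.993), whose mean of 8.32 was the lowest in pyometra.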
